A study of Mus musculus with 2 samples.

Results

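Alpha- and beta-tubulin are the proteins that join as dimers to build microtubules, and in the mouse each is encoded by several genes, called isotypes. The 10 isotype genes described here are the alpha-tubulin genes Tuba1a, Tuba1b and Tuba1c and the beta-tubulin genes Tubb2a, Tubb2b, Tubb3, Tubb4a, Tubb4b, Tubb5 and Tubb6. They were taken by name from the 42462 Ensembl genes of the deposited gene tables that a GENCODE name could be given to, out of 69691 rows in all, and all 10 were found. The rule takes them by name and uses no measured value, but earlier results of these data were known when they were chosen. Total RNA was sequenced from the forebrain of mouse embryos at embryonic day 14.5, strain B6NCrl, in 1 group of 2 biological replicates with no treatment. Each sample is labelled as a single forebrain and the collection days differ, yet both samples carry the same donor entry and are labelled as pooled sexes, so that the separation of the embryos rests on the labels' replicate numbers and collection days. For each library 10 ng of RNA above 200 nt was used, and spike-in RNAs were added.

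Microtubules carry cargo along the processes of neurons, push the nucleus of a migrating neuron forward and form the spindle of a dividing progenitor. The isotypes differ mostly in their last residues, a tail rich in glutamate on the outside of the microtubule, where enzymes add or remove glutamate, glycine and the last tyrosine of alpha-tubulin. Tuba1a, Tubb2b, Tubb3 and Tubb5 are known for human malformations of the cortex caused by mutations, Tubb3 is a widely used marker of neurons, and Tubb4a is known for its part in myelinating oligodendrocytes and a disease of white matter.

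The depth was 35310017 expected counts in replicate 1 and 29250404 in replicate 2. Expected counts are read numbers in which a read that fits several genes is divided among them. Forebrain markers were present, as 9 of 9 were above 1 TPM in both libraries with a median of 54.6 TPM (a level per length of transcript, scaled to a fixed sum in each library). Of 8 hindbrain and spinal cord markers, Gbx2 alone was above 1 TPM, and Hoxa3 and Hoxb3, among others, had 0 counts. Over 17991 genes the counts of the 2 libraries differed by 25.6 times the chi-square of counting noise per degree of freedom, so they are not 1 library deposited under 2 names. The labels do not say whether the mothers were the same, and errors below are SDs over these 2 libraries (n = 2).

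The genes lie partly in clusters (mm10 coordinates from GENCODE release M21). Tuba1b (ENSMUSG00000023004.8, chr15:98931425-98934565, minus strand), Tuba1a (ENSMUSG00000072235.5, chr15:98949837-98953703, minus strand) and Tuba1c (ENSMUSG00000043091.8, chr15:99029891-99038110, plus strand) stand within 107 kb of chromosome 15. Tubb2a (ENSMUSG00000058672.6, chr13:34074274-34078007) and Tubb2b (ENSMUSG00000045136.5, chr13:34126748-34130466) stand 48.7 kb apart on the minus strand of chromosome 13. Tubb3 (ENSMUSG00000062380.3) lies at chr8:123411424-123422015 on the plus strand, Tubb4b (ENSMUSG00000036752.4) at chr2:25222160-25224702 on the minus strand, and Tubb5 (ENSMUSG00000001525.10) and Tubb4a (ENSMUSG00000062591.5) on the minus strand of chromosome 17 at chr17:35833921-35838306 and chr17:57080066-57087782. The leading transcript of each of the 10 genes has 4 exons.

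The sequences below are the last 60 coding bases of 7 isotypes, stop codon included. They encode the tail in which many of the isotypes differ and on which the modifying enzymes act. They were read 5′ to 3′ on the coding strand of the leading GENCODE M21 transcript, and capitals mark glutamate codons (GAA or GAG).
Tuba1c: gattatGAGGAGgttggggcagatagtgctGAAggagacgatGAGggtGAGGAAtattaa
Tubb2a: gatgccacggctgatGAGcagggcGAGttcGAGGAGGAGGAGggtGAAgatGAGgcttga
Tubb2b: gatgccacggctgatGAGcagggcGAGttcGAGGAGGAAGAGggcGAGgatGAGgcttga
Tubb3: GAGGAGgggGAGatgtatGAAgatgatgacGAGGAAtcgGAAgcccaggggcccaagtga
Tubb4a: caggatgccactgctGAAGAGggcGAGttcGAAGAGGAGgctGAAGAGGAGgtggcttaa
Tubb4b: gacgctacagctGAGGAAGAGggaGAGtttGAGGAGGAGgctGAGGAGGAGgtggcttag
Tubb5: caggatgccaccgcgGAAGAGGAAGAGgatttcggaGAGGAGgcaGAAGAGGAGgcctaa

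In these 7, glutamate codons made up 6 (Tuba1c) to 10 (Tubb4b) of the 19 codons before the stop, with 7 in Tubb3. Tubb2a and Tubb2b differed at 3 of the 60 bases, each the last base of a glutamate or glycine codon, so their tails encode the same residues. The codon before the stop encoded tyrosine in all 3 alpha isotypes, the residue that is removed and put back in the tyrosination cycle, and in none of the beta isotypes.

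The first 12 coding bases are shown because the nascent residues they encode are the ones that TTC5 reads when free tubulin dimers trigger decay of tubulin mRNA; capitals are not used.
Tuba1a, Tuba1b and Tuba1c: atgcgtgagtgc
Tubb2a: atgcgcgagatc
Tubb2b: atgcgagagatc
Tubb3 and Tubb4b: atgagggagatc
Tubb4a: atgcgggaaatc
Tubb5: atgagggaaatc

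The alpha genes shared 1 spelling of this start, while the 6 beta genes printed used 5 spellings. Over the whole protein, Tuba1a and Tuba1b were 99.6% identical with 2 substitutions, and Tuba1c was 98.2% identical to each of them. Tubb2a and Tubb2b were 99.6% identical, also with 2 substitutions, while the identity over all pairs of beta isotypes ran from 90.2% to 99.6% with a median of 92.0%. Alpha and beta isotypes were 39.8% to 41.4% identical. Among beta isotypes, the coding bases were less alike than the proteins over the range, with 80.2% to 96.5% identity.

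The isotypes spanned a 683-fold range on the TPM scale, and 1 gene stood far above the rest. Tuba1a, the main alpha-tubulin of newborn neurons, had 16848 TPM in replicate 1 and 17140 in replicate 2 (16994 ± 207). It ranked 1 among nuclear protein-coding genes and was 9.97-fold above Tubb5, the next isotype (log2 ratio 3.32 ± 0.03). The 2 libraries agreed closely, with a coefficient of variation of 1.22% for Tuba1a.

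The next 4 isotypes lay close together. Tubb5, a beta-tubulin of progenitors and young neurons, had 1664 and 1746 TPM (1705 ± 58). Tubb3, the neuronal beta-tubulin, had 1486 and 1666 TPM (1576 ± 128), and Tuba1b, a widely expressed alpha-tubulin, had 1393 and 1242 TPM (1317 ± 107). Tubb2a, a beta-tubulin of brain, had 1124 and 1500 TPM (1312 ± 265), the largest SD of these 4. The ranges over the libraries overlapped for Tubb5 and Tubb3, although Tubb5 was the higher in each library. They also overlapped for Tuba1b and Tubb2a, whose order changed between the libraries.

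The other 5 isotypes stood apart from each other and from the rest. Tubb2b, a beta-tubulin of migrating neurons and radial glia, had 744 and 670 TPM (707 ± 52), below Tubb2a in both libraries. Tubb4b, a widely expressed beta-tubulin, had 326 and 348 TPM (337 ± 16), and Tubb4a had 190 and 212 TPM (201 ± 16). Tuba1c had 72.2 and 45.3 TPM (58.8 ± 19.0), and Tubb6 (ENSMUSG00000001473.6, chr18:67390717-67402749, plus strand) had the lowest level with 25.5 and 24.3 TPM (24.9 ± 0.8). Tuba1c had the largest coefficient of variation of the 10 isotypes, 32.4%, against 20.2% for Tubb2a and 1.22% to 8.11% for the other 8.

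**Figure D1:**
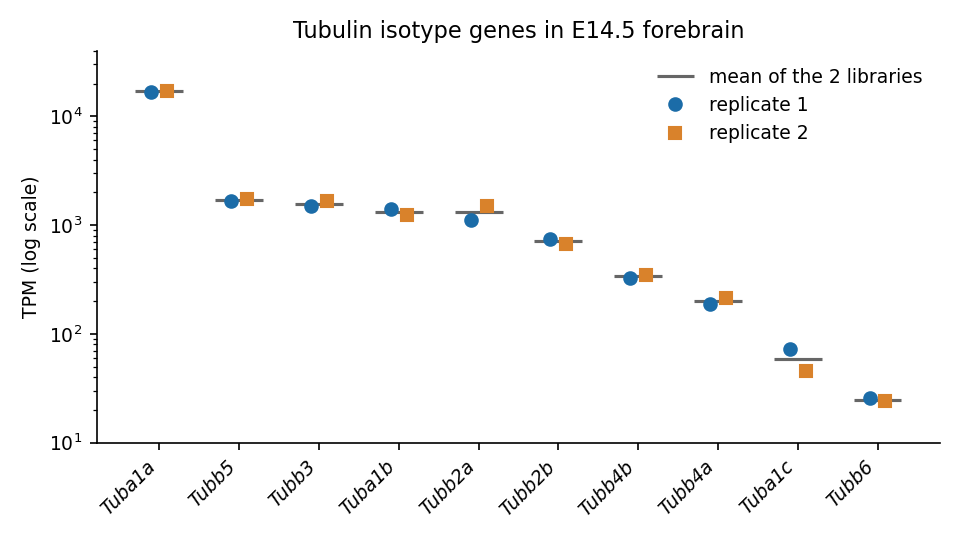
TPM on a log axis of the 10 isotype genes, ordered by mean, with a circle for replicate 1, a square for replicate 2 and a line for their mean. Tuba1a lies at 16848 and 17140 TPM, Tubb5, Tubb3, Tuba1b and Tubb2a lie between 1124 and 1746 TPM, and Tubb6 lies at 24.3 and 25.5 TPM.

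In all, the 10 isotypes took 2.53% of the expected counts in replicate 1 (95% Wilson interval 2.53% to 2.54%) and 2.43% in replicate 2 (2.42% to 2.43%). These intervals cover counting error only, since reads without molecular identifiers are not independent molecules. On the TPM scale they summed to 23872 and 24594, or 2.39% and 2.46% of all TPM.

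All 45 pairs of isotypes were compared within each library. A pair was called separated when the deposited TPM intervals did not overlap in either library and the order was the same, and no p-value can be given with 1 group. Of the 45 pairs, 44 were separated, and 33 of them by at least 2-fold in both libraries. The exception was Tuba1b against Tubb2a, where the log2 ratio was 0.31 in replicate 1 and -0.27 in replicate 2. The intervals belong to 1 library each and do not measure the spread between embryos. For most isotypes they did not overlap between the 2 libraries either, as given below. The closest separated pair was Tubb5 over Tubb3, with a log2 ratio of 0.12 ± 0.07, although the ranges of these genes over the libraries overlapped.

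Pairs differed in how steady their ratio was. Tubb3 over Tubb4a was 2.97 on the log2 scale in both libraries (SD 0.00), and Tuba1b over Tubb2b was 0.91 and 0.89. Tubb2a over Tubb2b was 0.60 in replicate 1 and 1.16 in replicate 2, so this pair of near-identical neighbours kept its order but not its ratio. The widest swing was that of Tubb2a over Tuba1c, from 3.96 to 5.05.

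Within the alpha pool, Tuba1a held nearly all of the RNA. It made up 92.0% and 93.0% of the summed alpha TPM, Tuba1b 7.61% and 6.74%, and Tuba1c 0.394% and 0.246%. The beta pool was divided much more evenly. Tubb5 held 29.9% and 28.3% of the summed beta TPM, Tubb3 26.7% and 27.0%, Tubb2a 20.2% and 24.3%, and Tubb2b 13.4% and 10.9%. Tubb4b held 5.86% and 5.65%, Tubb4a 3.42% and 3.44%, and Tubb6 0.459% and 0.394%. Without division by transcript length, Tubb5, which has the longest transcript, held 38.1% of the beta counts, and Tubb2a 17.2%.

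**Figure D2:**
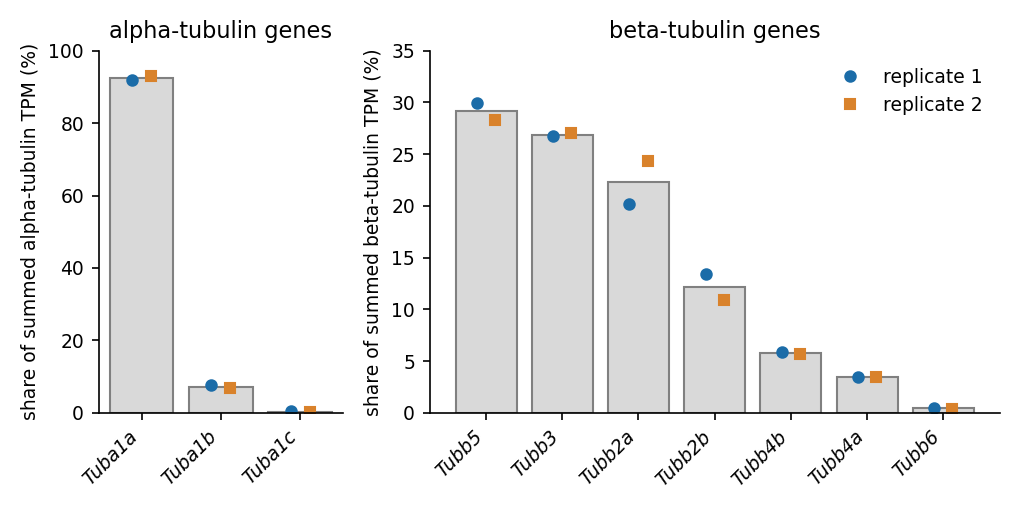
Share of the summed alpha-tubulin TPM (left, 3 genes) and of the summed beta-tubulin TPM (right, 7 genes; the axes differ), in percent; bars are means of 2 libraries, circles replicate 1 and squares replicate 2. Tuba1a holds 92.0% and 93.0% of the alpha pool, while the highest beta isotype, Tubb5, holds 29.9% and 28.3% of the beta pool.

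Alpha-tubulin RNA exceeded beta-tubulin RNA, although the proteins join one to one. The 3 alpha isotypes summed to 18313 and 18428 TPM and the 7 beta isotypes to 5559 and 6166 TPM. The ratio was 3.29 in replicate 1 and 2.99 in replicate 2 (log2 1.65 ± 0.10). Tuba1a alone was 3.03 and 2.78 times the beta sum, while Tuba1b and Tuba1c together were 0.264 and 0.209 of it. The direction was the same with expected counts not divided by length, where the mean log2 ratio was 1.33. RNA levels do not measure the proteins.

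Nearly all of each level came from 1 transcript. The leading transcript, protein-coding in each case, held 98.4% to 100% of the TPM of its gene in both libraries. Retained-intron transcripts were seen for Tubb5, of which Tubb5-204 held 0.87% and 1.19%, and for Tuba1b, where Tuba1b-202 held 0.76% and 0.97%. A short transcript deposited under Tuba1a, which has no match in the later annotation, held 1.33% and 1.16% of the Tuba1a level.

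How far the reads can tell the isotypes apart was read from the transcripts. Each leading transcript was cut into all windows of 100 bases, the read length that the deposited effective lengths imply, and each window was searched for exactly in the transcripts of every other GENCODE M21 gene. Tuba1b had 73.0% of its windows in another gene, Tuba1a 65.8% and Tuba1c 53.4%. Tubb2a had 36.9%, Tubb4b 30.6% and Tubb2b 27.7%, while Tubb3, Tubb4a, Tubb5 and Tubb6 shared 0 windows. Tubb2a and Tubb2b shared 543 windows with each other, in stretches of up to 551 bases. Tuba1a shared 594 of its windows with Tuba1c and 448 with Tuba1b. Among windows that lay wholly after the stop codon, 30 of Tuba1b and 22 of Tubb4b were shared and 0 of the other 8 isotypes.

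**Figure D3:**
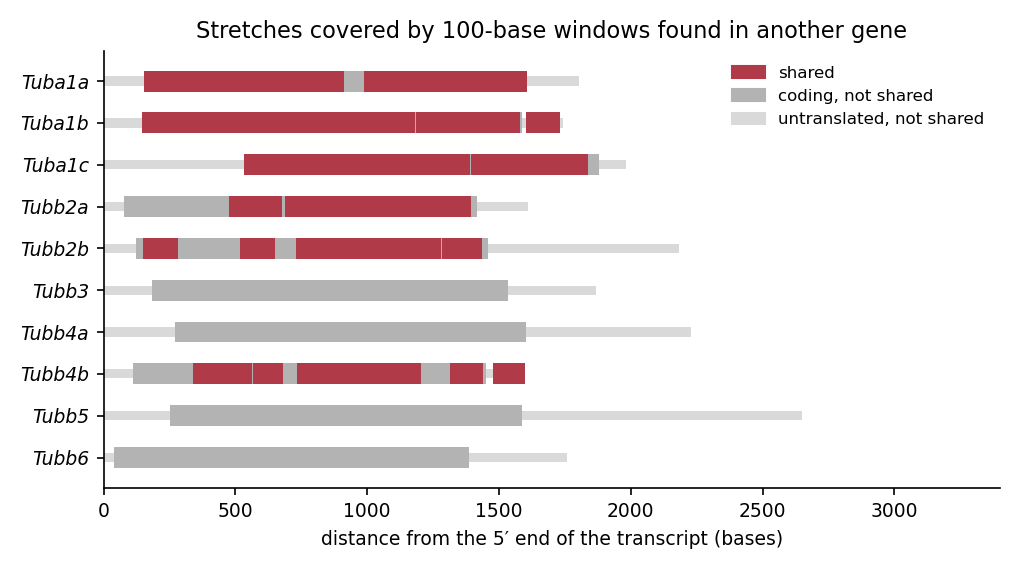
Leading transcripts of the 10 isotypes drawn to scale from their 5′ end in bases; red marks bases within a 100-base window that also occurs in another gene, dark grey other coding bases and light grey other untranslated bases. The 3 alpha isotypes are red over most of the coding part, Tubb2a, Tubb2b and Tubb4b over a portion, and Tubb3, Tubb4a, Tubb5 and Tubb6 nowhere.

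The authors also deposited an uncertainty of each count. The posterior SD of the count was 0 in both libraries for Tubb3, Tubb4a, Tubb5 and Tubb6, the isotypes with no shared window. It was 2.02 and 1.97 counts for Tubb4b. It was 93 and 83 counts for Tubb2a and also for Tubb2b, which is 0.211% to 0.384% of their counts. For Tuba1b, which had the largest share of windows in other genes, it was 144 and 116 counts, or 0.277% and 0.324%, no larger a share than for Tubb2b. For Tuba1c it was 62 and 42 counts, or 2.00% and 2.80% of its count, the largest share of the 10 isotypes. For Tuba1a it was 0.0229% and 0.0242%, the smallest share but for Tubb4b among the 6 isotypes with shared windows, so beyond 0 or above 0 the SDs did not follow the share of windows. Of the deposited leading transcripts, 5 of 10 had the same length as those searched, and the search included genes added to the annotation later, so these shares are a description of the sequences and not of the authors' alignment.

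Other genes share sequence with alpha or beta isotypes too. Of 16 further genes that held at least 1 such window of any isotype, 12 are annotated as pseudogenes and 9 of these were in the deposited tables. Those sharing windows with the alpha isotypes were 6 pseudogenes, which summed to 55.9 and 55.0 TPM, of the order of Tuba1c. The highest was Gm14150 with 23.6 and 24.6 TPM, and Gm17383 had 12.2 and 13.7 TPM; both were named after their values were seen. Whether their reads came from these copies or from the alpha genes was not tested. The pseudogenes of Tubb4b, Tubb4b-ps1 and Tubb4b-ps2, were at 0.23 TPM or below. Overlapping genes were Gm49450, on the strand of Tuba1a and Tuba1b, Gm20388, on that of Tubb3, Gm41396, antisense to Tuba1b, and Fam166a, opposite to Tubb4b. Strand cannot separate reads in the overlaps with Gm49450 and Gm20388, but the leading Tubb3 transcript shared 0 windows with any gene, Gm20388 included. For Gm41396 and Fam166a, the sources used here do not give whether strand was used in counting. Gm41396 shared no window with the leading Tuba1b transcript, while Fam166a shared 22 with that of Tubb4b. Gm49450 was not a gene of the deposited tables, where its transcript Gm49450-201 stood under Tuba1a.

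Between the embryos, none of the 10 isotypes differed by 2-fold or more with intervals apart, a rule that 34 of the 10943 genes averaging at least 5 TPM met (0.311%). Smaller differences were present on the TPM scale. Without a fold limit, 6 isotypes were higher in replicate 2 with intervals apart, against 37.5% of all genes, and 3 were lower, against 8.38% of all genes. Tubb6 alone had overlapping intervals, and it had the fewest counts of the 10 (967 and 710). Intervals narrow as counts rise, and the isotypes had a median of 1009 TPM against 27.0 TPM for all genes. The shares of all genes, here and below, are therefore not those of genes of like level, which were not computed. With 1 library an embryo these differences compare the libraries, and fewer cells of a type cannot be told apart from less RNA per cell.

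On the TPM scale, the ratios of Tuba1c and Tubb2a were the largest in size of the 10 and opposite in direction; under the other scalings and relative to the median of all genes, given below, those of Tuba1b and Tubb2b were larger in size than that of Tubb2a. Tuba1c was 72.2 TPM in replicate 1 and 45.3 in replicate 2, a log2 ratio (of TPM + 1, replicate 2 over replicate 1) of -0.66, and 97.2% of genes had a smaller ratio in size. Tubb2a was 1124 and 1500 TPM, a log2 ratio of 0.42, and 85.2% of genes had a smaller one. The expected counts of Tubb2a were 38207 and 39238 although replicate 2 had fewer counts in all, while those of Tubb2b were 31018 and 21509. Tubb2b had a ratio of -0.15 and Tuba1b of -0.17. The sum of Tubb2a and Tubb2b, which depends little on how reads were divided between them, was 1868 and 2169 TPM, a log2 ratio of 0.22. With TMM, DESeq2 size factors and spike-in counts, described next, the ratio of this sum was 0.02, 0.00 and -0.15.

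The scaling matters for the sign of the small ratios. The median log2 ratio of all 10943 genes was 0.14 on the TPM scale, -0.02 with TMM, -0.04 with DESeq2 size factors and -0.19 with spike-in counts, the last 3 on expected counts. Tubb2a was higher in replicate 2 under all 4 scalings, by 0.08 to 0.42, and Tuba1b, Tuba1c, Tubb2b and Tubb6 were lower under all 4. Tuba1a, Tubb3, Tubb4a, Tubb4b and Tubb5 were above 0 on the TPM scale (0.02, 0.17, 0.16, 0.10 and 0.07) and below 0 under the other 3.

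Relative to the median of all genes, TMM, DESeq2 size factors and spike-in counts give the same values by construction, because they differ only by a constant. The values on the TPM scale were close to these. Tubb2a was 0.27 to 0.28 above that median, Tubb3 0.02 to 0.03 and Tubb4a 0.02 above it. The other 7 were below it, Tuba1c by -0.82 to -0.80, Tuba1b by -0.31 to -0.30, Tubb2b by -0.29, Tubb6 by -0.21 to -0.20 and Tuba1a by -0.12 to -0.11. Tubb5 and Tubb4b were within 0.08 of it. Among the 1711 genes averaging at least 100 TPM, the median on the TPM scale was 0.017, against 0.138 for all genes. Tuba1a (0.025), Tubb4b (0.096) and Tubb5 (0.069) lay above that lower median. Their side of the median therefore depends on the level of the genes it is taken over.

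**Figure D4:**
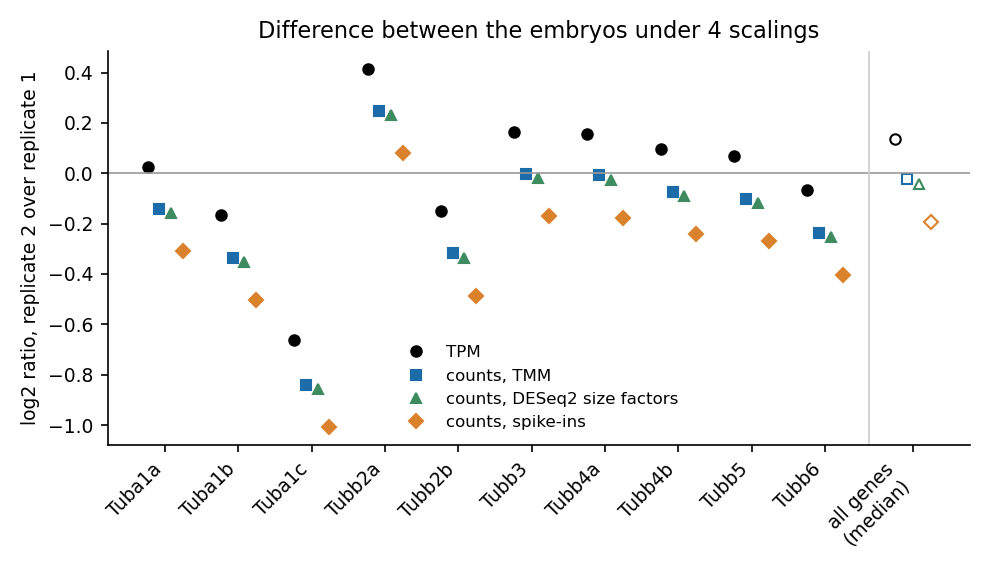
Log2 ratio of replicate 2 over replicate 1 for the 10 isotypes and, with open symbols, the median of all genes, under 4 scalings (circles TPM, squares TMM, triangles DESeq2 size factors, diamonds spike-in counts). Tubb2a lies above 0 under each scaling and Tuba1c lowest, at -0.66 to -1.01.

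Markers of cell types differed between the same libraries on the TPM scale, where the median log2 ratio of all genes was 0.14. They were not compared under the scalings of counts, which can make such ratios smaller or change their sign. Of 10 neuron markers, 9 were higher in replicate 2 with intervals apart (37.5% of all genes), and the sum of the 10 was 2360 and 3060 TPM with a median log2 ratio of 0.38. Of 7 cell cycle markers, 6 were lower with intervals apart (8.38% of all genes), with a sum over the 7 of 974 and 813 TPM and a median of -0.21. Progenitor markers were split, with 4 of 9 higher and 4 lower with intervals apart (37.5% and 8.38% of all genes). They summed to 2157 and 2159 TPM, with a median log2 ratio of -0.16. Markers of red blood cells summed to 11279 and 13964 TPM, those of meninges to 234 and 323 TPM, and those of the oligodendrocyte lineage to 39.5 and 60.7 TPM. Of 5 meninges markers, 1 was called different at 2-fold (0.311% of all genes). No marker of these 6 lists was at 0. Endothelial markers summed to 119 and 131 TPM and those of microglia to 101 and 109 TPM. Those of choroid plexus summed to 789 and 800 TPM and those of multiciliated cells to 18.1 and 22.2 TPM. Their part in the differences of the isotypes was not tested. Tubb3, itself a neuronal marker, had a log2 ratio of 0.17 on the TPM scale, and 9 of the 10 neuron markers had a larger one.

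The remaining tubulin genes were low. Tubg1, the gamma-tubulin that nucleates microtubules, had 70.6 and 74.8 TPM, and its copy Tubg2 had 22.8 and 27.2 TPM. Tuba4a, an alpha-tubulin without an encoded tyrosine, had 16.4 and 12.0 TPM, below Tuba1c. Tubd1 and Tube1, the delta- and epsilon-tubulins of centrioles, had 9.25 and 8.50 TPM and 6.53 and 6.34 TPM. Tubb1, the beta-tubulin of platelets, had 0.60 and 0.96 TPM and Tuba8 0.18 and 0.29 TPM. Tuba3a had 4 and 0 counts, Tuba3b 0 and 1, and Tubal3 had 0 counts in both, which allows up to 3 counts. Adding all alpha and beta genes moved the share of Tuba1a in the alpha pool from 92.5% to 92.4%.

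The genes that fold tubulin were all present. Prefoldin hands the new chains to the CCT chaperonin, and the cofactors Tbca to Tbce with Arl2 then join alpha to beta. All 21 genes were above 1 TPM in both libraries, with a median of 264 TPM. The highest were the CCT subunits Cct5 (543 ± 7 TPM), Cct3 (509 ± 16), Cct6a (462 ± 11) and Cct7 (461 ± 2) and the prefoldin subunit Pfdn5 (480 ± 71), and the lowest was Tbcel (4.53 ± 0.06), a relative of the cofactor Tbce. Of the 20 that averaged at least 5 TPM, 0 were called different between the embryos (0.311% of all genes), 5 were higher in replicate 2 with intervals apart (37.5%) and 2 lower with intervals apart (8.38%).

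Of 25 genes that modify tubulin or control its mRNA, 22 were above 1 TPM in both libraries. Atat1, the acetyltransferase of alpha-tubulin, was the highest with 260 and 373 TPM, and Svbp, the partner of the vasohibins that cut off the last tyrosine, had 250 and 247 TPM. Ttc5, the reader of the coding start shown above, had 130 and 124 TPM, Sirt2, a deacetylase, 90.7 and 96.7 TPM, and Tpgs1, a subunit of a polyglutamylase, 89.2 and 87.7 TPM. Ttll6, a polyglutamylase, was the lowest with 0.05 and 0.12 TPM. Of the 25, 18 averaged at least 5 TPM. Of these, 7 were higher in replicate 2 with intervals apart (37.5% of all genes), 0 were lower (8.38%) and 0 passed 2-fold (0.311%). Atat1 had the log2 ratio 0.52 on the TPM scale, where the median of all genes was 0.14. Its expected counts were 10196 and 11042.

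All 10 genes of the gamma-tubulin ring, the template from which microtubules grow, were above 1 TPM in both libraries, with a median of 38.2 TPM. After Tubg1 came Mzt1 (59.7 ± 5.4 TPM), Tubgcp2 (51.2 ± 2.3), Mzt2 (45.5 ± 2.5) and Tubgcp3 (42.1 ± 3.3), and Tubgcp6 was the lowest (13.9 ± 0.6). Of the 10, 3 were higher in replicate 2 with intervals apart (37.5% of all genes), 0 were lower with intervals apart (8.38%) and 0 were called at 2-fold (0.311%).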

How the data were processed

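Gene and transcript tables of 2 libraries were used, on mm10 with GENCODE M4 per the submitters' processing notes. The aligner, quantifier, versions and strand setting are not given in the sources used here. Per the file headers, the authors deposited expected counts, TPM, posterior means, posterior SDs of counts, TPM intervals whose level is not stated, and each transcript's percent of its gene's level. The intervals are centred on the posterior mean TPM, and the TPM lay above the interval for 8 of the 10 isotypes (Tuba1c and Tubb6 lay inside). The TPM sum includes spike-ins and numeric rows.

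Names and coordinates came from GENCODE M21 by ID without version, as did sequences and global alignments (Biopython 1.88). Levels are TPM with mean ± SD over 2 libraries. Pairs and pools were compared within a library without a pseudocount. Embryo ratios used TPM + 1, for named nuclear genes averaging at least 5 TPM. A gene was called at 2-fold with intervals apart. Calls at any fold and the sums of near-identical genes were added after seeing the data. Expected counts were rescaled by TMM (edgeR 4.0.16), DESeq2 1.42.0 size factors and spike-in sums. There is 1 group, so no test was made. The embryo call was run on simulated data with counting noise only, which the real libraries exceeded. It found 100 of 100 genes raised 3-fold, 50 of 50 raised 4-fold and 43 of 50 lowered 4-fold. Of 10731 unchanged genes it called 0. The simulation cannot show how often the call errs on the real libraries.

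Depth was 35310017 and 29250404 expected counts. The isotypes, gene lists and markers were chosen with earlier results of these data known. Genes named were all isotypes and other tubulin genes, and the 5 highest and the lowest of the folding, modification and gamma-tubulin ring lists. Genes of these lists called different were also to be named, and there were 0. Predicted pseudogenes and overlapping genes that share sequence, and the marker Gbx2, were named after their values were seen. Some sequences and 1 marker gene are not reported here, but counts include them.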

Additional observations from a re-analysis of the deposited data

How the results depend on the processing

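With 2 libraries of 1 group, the SD has 1 degree of freedom, and low depth limits Tubb6 and Tuba1c most (710 and 1499 counts in replicate 2). No paired analysis was possible because there is only 1 group. Of the 45 pairs, the 44 separated ones kept their direction with posterior mean TPM, protein-coding transcripts alone and counts not divided by length, and 33 were separated by 2-fold or more; with 1 library left out, 45 were separated. The share of Tuba1a in the alpha pool was 92.0% to 93.0% with 1 library left out and moved by less than the SD under every other setting run. The sum of the isotypes was 24233 TPM, 23547 with posterior means, 29422 when TPM were rescaled to nuclear protein-coding genes, and 23872 to 24594 with 1 library left out. The log2 ratio of alpha to beta was 1.65, 1.33 with counts not divided by length and 1.58 to 1.72 with 1 library left out. The 34 genes called different between the embryos became 59 with a mean TPM of 1 or more, 62 with no filter and 438 at 1.5-fold. The isotypes called stayed at 0 under each of these settings except 1.5-fold, where Tuba1c made the count 1. Under TMM, DESeq2 size factors and spike-in counts 27, 28 and 41 genes were called, with 0 isotypes. Tuba1c lay at the limit with spike-in counts. Its ratio of expected counts, without the 1 that the call adds to TPM, was -1.01 there and past 2-fold. The ratios between the embryos of Tuba1a, Tubb3, Tubb4a, Tubb4b and Tubb5 fell below 0 under these 3 scalings: -0.14, -0.16 and -0.31 for Tuba1a, -0.00, -0.02 and -0.17 for Tubb3, -0.01, -0.03 and -0.18 for Tubb4a, -0.07, -0.09 and -0.24 for Tubb4b, and -0.10, -0.12 and -0.27 for Tubb5. These 3 scalings differ from each other by an amount common to all genes. The step from TPM to counts also depends on the transcript length of each gene in each library.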
